A study of Mus musculus with 12 samples.

Results

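Lubricin and the genes of the hyaluronan coat were followed across the cells of the mouse joint. The 7 genes were *Prg4*, *Has1*, *Has2*, *Cd44*, *Vcan*, *Acan* and *Hapln1*, taken by symbol from the 27998 genes of the deposited matrices, and each symbol matched 1 row. Hyaluronan is a long, unbranched sugar polymer that is spun out of the cell by synthases in the plasma membrane, and together with lubricin it makes synovial fluid viscous and slippery. In cartilage the same polymer is the backbone on which aggrecan is held by link protein, and in looser tissues versican takes the place of aggrecan. *Prg4* encodes lubricin, a mucin-like glycoprotein that coats joint surfaces. *Has1* and *Has2* encode hyaluronan synthases, *Cd44* the main cell surface receptor for hyaluronan, *Vcan* versican, *Acan* aggrecan and *Hapln1* the link protein.

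The cells came from hind limb joints of wild-type C57BL/6 male mice aged 8 to 10 weeks, which were digested with collagenase and sorted for live cells without CD45, the surface protein of blood leukocytes. Serum transfer-induced arthritis (STIA), in which antibodies in serum of arthritic K/BxN mice inflame the joints of the recipient, was started with 100 µl of serum. The labels were rest, at day 0 without serum, peak, at day 7 to 9, resolving, at day 15, and resolved, at day 22, with 3 libraries per label and the joints of 3 animals pooled in each. Droplet libraries of the 3′ ends of transcripts were counted as unique molecular identifiers (UMIs), so values below are CPM, the UMIs of a gene scaled to 1000000 UMIs of all cells of a kind in 1 library. All 12 libraries share genotype, strain and digestion, and animals within a library cannot be separated.

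After filtering, 20060 of 21042 cells remained, from 1227 to 2747 per library, with 7468914 to 16566202 UMIs. The median deposited cell held 5358 UMIs in each of the 12 libraries, and whether the counts had been brought to 1 depth is not given in the sources used here. No cell barcode occurred in more than 1 library. Each library carries a barcode suffix from 1 to 12. In sums over fibroblast-like cells the library most like a given library, by correlation over 11952 genes, lay in the same run of 3 consecutive suffixes (1 to 3, 4 to 6, 7 to 9, 10 to 12) for 12 of 12 libraries and carried the same label for 0 of 12. In order of suffix the labels read rest, peak, resolving, resolved, repeated 3 times, so a run does not match a label. Whether labels or suffixes were assigned wrongly was not tested, and each comparison of labels below holds only as far as the labels do. The main levels are therefore given by run as well as by label.

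Cells were clustered without the 7 genes, and clusters were named from other markers. The data held 11427 fibroblast-like cells in 9 clusters, of which 1134 were lining-like (*Clic5*, *Htra4*, *Tspan15*, *Col22a1*), 2103 tenocyte-like cells, 1767 vascular endothelial-like, 1365 osteoblast-like, 672 proliferating-like, 657 perivascular-like, 313 chondrocyte-like, 265 muscle-like, 186 lymphatic endothelial-like, 112 immune-like, 109 Schwann-like and 63 erythroid-like cells. The tenocyte-like cells formed a cluster led by *C1qtnf3* and *Spon2*, found mostly in libraries with suffixes 7 to 9, and another led by *Ptx4* and *Chodl*. A cluster of 862 cells carried fibroblast markers and had *Cytl1*, *Clu*, *Cilp* and *Chad* among its leading genes. It was left unnamed by a rule set after the clusters had been seen, and is not counted among the fibroblast-like clusters. Also unnamed were a cluster of 132 cells led by *Tnnc2* and *Acta1*, genes of fast muscle fibres, and one of 27 cells led by *Cfd* and *Adipoq*, genes of fat cells. The other fibroblast-like clusters are called by their first leading genes, since only lining and sublining markers were fixed. Because a gene can be linked to the genes that shaped a cluster, a difference between clusters describes the partition as well as the gene.

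Positions are those of the mm10 build (GENCODE M21 annotation). *Hapln1* (chromosome 13, 89539796 to 89611652, plus strand) and *Vcan* (chromosome 13, 89655312 to 89742509, minus strand) are neighbours 43659 bases apart with 0 protein-coding genes between them. *Acan* (chromosome 7, 79053483 to 79115099, plus strand) ends 2 bases short of *Hapln3*, another link protein gene. *Has1* lies on chromosome 17 (17843323 to 17855205), *Has2* on chromosome 15 (56665627 to 56694539), *Cd44* on chromosome 2 (102811141 to 102901665) and *Prg4* on chromosome 1 (150449412 to 150466165), all on the minus strand. On the opposite strand *Has2* overlaps the antisense gene *Has2os*, *Prg4* overlaps *Tpr*, and *Cd44*, *Vcan* and *Hapln1* overlap genes known only by Gm numbers. *Has1* and *Acan* overlap no annotated gene.

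RefSeq start sites (GRCm38.p6) with a window of upstream sequence were matched for 5 of the 7 genes, and 3 of these windows are printed because *Has1*, *Vcan* and *Acan* differed most clearly between runs of libraries below. All are written 5′ to 3′ along the gene, with a cAMP response element (TGACGTCA) in capitals where present.
Has1, chr17:17855206-17855438, minus: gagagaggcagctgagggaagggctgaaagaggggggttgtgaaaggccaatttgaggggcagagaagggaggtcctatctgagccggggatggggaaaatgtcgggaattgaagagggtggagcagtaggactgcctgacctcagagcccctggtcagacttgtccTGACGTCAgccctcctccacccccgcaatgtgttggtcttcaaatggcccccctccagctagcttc
Vcan, chr13:89742513-89742762, minus: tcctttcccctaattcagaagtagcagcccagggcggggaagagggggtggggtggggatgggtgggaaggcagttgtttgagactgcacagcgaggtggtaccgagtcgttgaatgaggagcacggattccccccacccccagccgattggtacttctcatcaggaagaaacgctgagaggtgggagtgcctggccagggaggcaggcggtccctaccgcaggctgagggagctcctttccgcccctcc
Acan, chr7:79052976-79053225, plus: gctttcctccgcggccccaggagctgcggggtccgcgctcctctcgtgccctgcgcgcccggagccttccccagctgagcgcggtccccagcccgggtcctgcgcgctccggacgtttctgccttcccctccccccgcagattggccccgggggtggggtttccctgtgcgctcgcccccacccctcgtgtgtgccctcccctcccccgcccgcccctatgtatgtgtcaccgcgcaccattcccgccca
The *Has1* window held 1 TGACGTCA, which reads the same on both strands and occurred in 1.56% of 32536 upstream windows. None of the 3 held TATAAA (12.3% of windows), the AP-1 element TGANTCA (6.73%) or the SOX element ACAAAG (16.5%), each searched on both strands. The *Acan* window was 74.4% G or C and the *Vcan* window 62.4%, against a median of 52.4% over all windows.

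*Prg4* was a gene of the lining. It reached a mean of 77748 ± 32071 CPM (SD, n = 12) in lining-like cells, with a lowest library at 40178, a median of 71259 and a highest at 132040. The 1134 lining-like cells, 5.65% of all cells, held 75.9% of all *Prg4* UMIs, and in the median lining-like cell *Prg4* made up 5.15% of the UMIs, against 0.0368% in the other fibroblast-like cells. In no other fibroblast-like cluster did a library exceed 2852 CPM, so the lowest lining sum lay above all of them. The unnamed *Cytl1* cluster, described below, is not among these clusters. Against the mean of the other 8 clusters *Prg4* was higher by 6.08 ± 0.10 (log2, SE; edgeR quasi-likelihood test, two-sided, adjusted p = 4.02e-74). In that comparison 31.7% of the 7089 genes tested were called, where a call is an adjusted p under 0.05 with a log2 difference over 0.5 either way, and 6 of the 6 members tested were called.

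**Figure D1:**
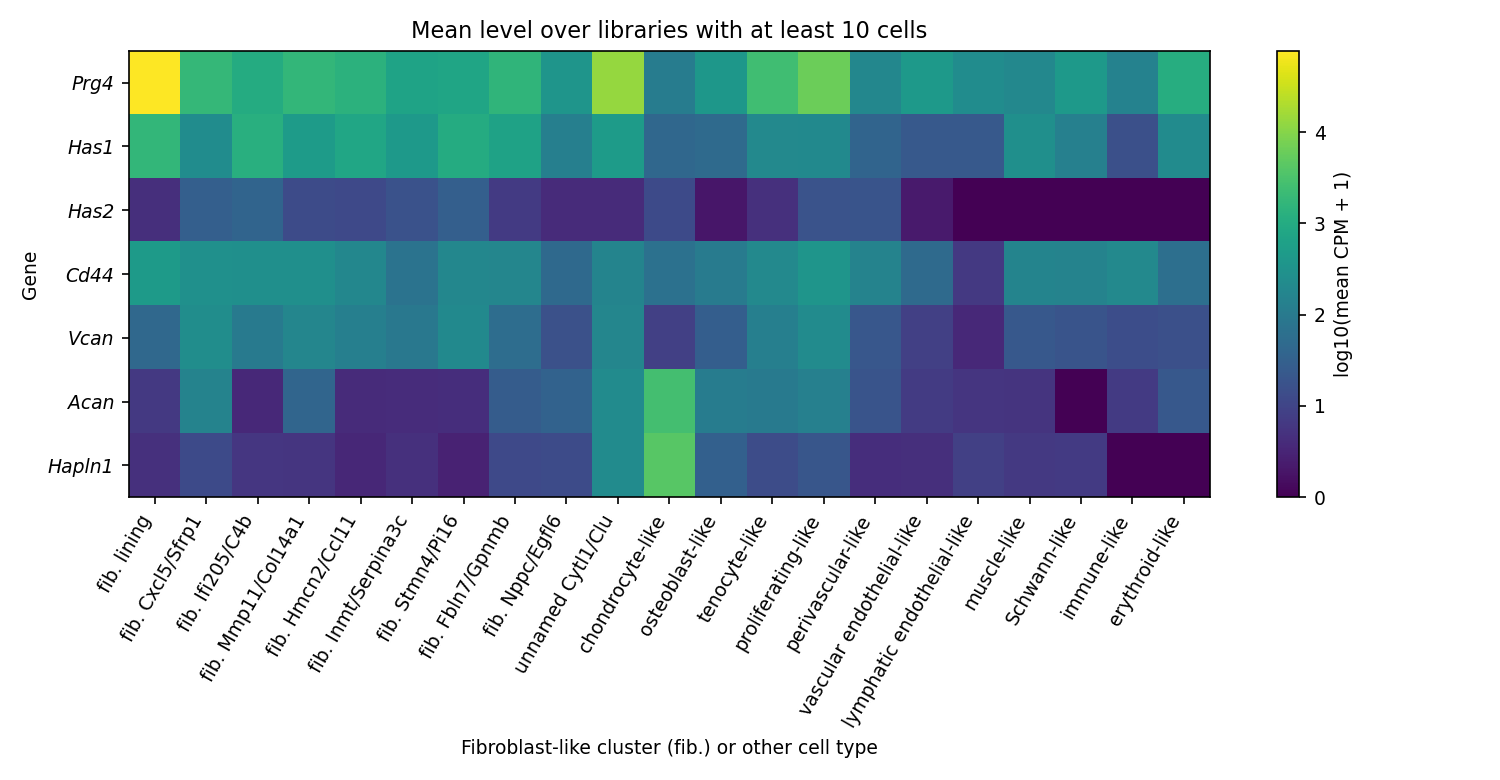
Mean level of each gene (rows) in fibroblast-like clusters and other cell types (columns), as log10 of the mean CPM plus 1 over libraries with at least 10 cells. *Prg4* peaks in lining-like cells (77748 CPM), and *Acan* and *Hapln1* peak in chondrocyte-like cells (2666 and 4137 CPM).

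Outside the lining, *Prg4* was next highest in the unnamed *Cytl1* cluster, at 13187 ± 11152 CPM. That mean joined separate groups of libraries. In suffixes 4 to 6 the values were 23666, 25419 and 36882 CPM, resolved replicate 2 (suffix 8) had 23974, and the other 8 libraries lay between 4428 and 9999. Proliferating-like cells had 6310 ± 2857 CPM (n = 6) and tenocyte-like cells 2503 ± 1283 (n = 12). Among the fibroblast-like clusters, *Prg4* was lowest in the cluster led by *Nppc* and *Egfl6*, at 360 ± 112 CPM. It was lower there than the mean of the other clusters by 2.60 ± 0.15 (log2, SE, edgeR quasi-likelihood test, adjusted p = 8.53e-29). Vascular endothelial-like cells, the background described below, had 56.1 CPM in rest replicate 3 and 655 in resolving replicate 3, so 360 CPM lay within their range. How much of it was background was not tested.

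*Prg4* UMIs were also found in vascular endothelial-like and chondrocyte-like cells. Vascular endothelial-like cells, which serve as background here, had 419 ± 685 CPM (n = 12), and 46.6% of them held a *Prg4* UMI (Wilson 95% interval 44.3% to 48.9%). Resolved replicate 2 alone had 2537 CPM there and the other 11 libraries 56.1 to 655, with a mean of 226 when it was left out. With each cell thinned to 2000 UMIs the share was 31.0% in vascular endothelial-like cells, which left out 201 of them, and 98.8% in lining-like cells, against 99.5% unthinned. Chondrocyte-like cells held 112 ± 25.4 CPM (n = 8), and 16.6% had a UMI after thinning, below the vascular share. These shares come from different sets of libraries. Whether the *Prg4* UMIs of chondrocyte-like cells were their own or background was not tested. The median depth was 7514 UMIs in lining-like, 3177 in vascular endothelial-like and 12558 in chondrocyte-like cells. Intervals cover counting error only.

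The hyaluronan synthases differed in the lining and overlapped in other clusters. *Has1* was highest in lining-like cells, at 1762 ± 735 CPM (n = 12), and ranged there from 665 through a median of 1469 to 2789. It was higher in lining than in the other clusters by 1.71 ± 0.12 (log2, SE; adjusted p = 1.80e-23). The clusters led by *Ifi205* and *C4b* and by *Stmn4* and *Pi16*, the latter sublining-like, followed at 1224 ± 293 and 1019 ± 423 CPM, and each was higher than the mean of its other clusters by 1.54 ± 0.12 and 0.78 ± 0.13. Libraries of the lining and of the *Ifi205*/*C4b* cluster overlapped in *Has1*, and this pair was not tested. The *Nppc*/*Egfl6* cluster was lowest, at 130 ± 89.3 CPM.

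*Has2* had the opposite lining pattern, which was not particular to the lining. Of the 9 clusters 3 were called lower in *Has2*, among them the lining and the *Nppc*/*Egfl6* cluster. The lowest log2 difference, −2.66, was in a cluster other than the lining. Lining-like cells had 3.54 ± 3.11 CPM, from 0 to 10.1, and were lower than the other clusters by 2.15 ± 0.28 on the log2 scale (adjusted p = 1.51e-10). Over all libraries the mean was highest in the *Ifi205*/*C4b* cluster, at 36.3 ± 13.8 CPM, with a range from 15.8 through a median of 38.8 to 54.1, and that cluster was higher by 2.13 ± 0.17 (adjusted p = 2.96e-20). The *Cxcl5*/*Sfrp1* cluster had 29.8 ± 19.6 CPM (n = 6) and the *Stmn4*/*Pi16* cluster 28.6 ± 13.6 (n = 12), both also called higher. In the 6 libraries with both, the *Cxcl5*/*Sfrp1* cluster averaged 29.8 CPM and the *Ifi205*/*C4b* cluster 29.2 ± 13.6, with the former higher in 4 of the 6, so their order depends on the libraries taken. The *Ifi205*/*C4b* and *Stmn4*/*Pi16* clusters were thus called higher for both synthases, the lining for *Has1* with *Has2* lower, and the *Cxcl5*/*Sfrp1* cluster for *Has2* with *Has1* lower by 1.32 ± 0.21 on the log2 scale.

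*Has2* was sparse. In the *Ifi205*/*C4b* cluster 13.8% of cells held a UMI (interval 12.1% to 15.6%), 6.25% after thinning, against 0.453% and 0.255% of vascular endothelial-like cells. Perivascular-like cells, the smooth muscle cells and pericytes around vessels, had 17.8 ± 12.8 CPM (n = 12), which was not called different from the fibroblast-like level of 20.5 ± 10.8 (log2 difference −0.32 ± 0.25, adjusted p = 0.329). No *Has2* UMI was seen in Schwann-like, erythroid-like, lymphatic endothelial-like or muscle-like cells. The limit that 3 UMIs would give ranged from 3.78 CPM over the lymphatic endothelial-like cells to 7.90 CPM over the Schwann-like cells, so a level such as that of the lining could not have been detected there.

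**Figure D2:**
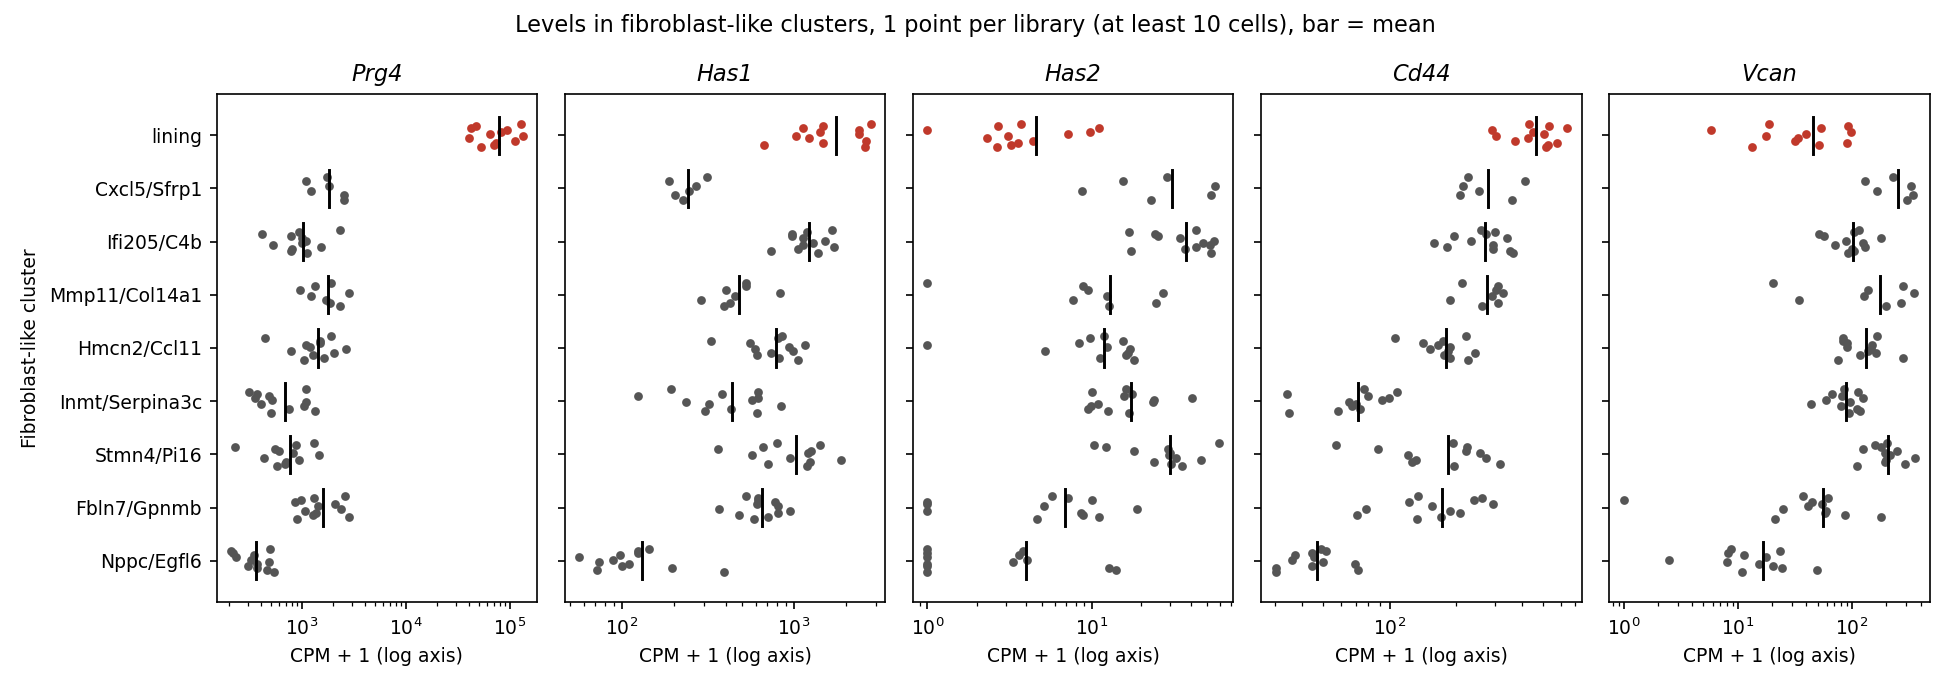
Levels in the 9 fibroblast-like clusters for 5 genes (CPM plus 1, log axis), with 1 point per library of at least 10 cells, lining-like cells in red and a bar at the mean. Lining libraries lie apart to the right for *Prg4*. For *Has2* they lie toward the left and overlap libraries of other clusters, such as *Hmcn2*/*Ccl11*. The lining mean is the highest for *Has1* and *Cd44*, and for *Has1* the lining overlaps the *Ifi205*/*C4b* cluster.

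*Cd44*, the receptor, was present in most cell types. Its order began with proliferating-like cells at 361 ± 78.7 CPM (n = 6), fibroblast-like cells at 229 ± 58.6 (n = 12), tenocyte-like cells at 203 ± 89.0 and immune-like cells at 199 ± 26.0 (n = 3), and no difference between neighbours in this order was called (log2 differences 0.34 ± 0.18, 0.16 ± 0.14 and 0.36 ± 0.32, adjusted p = 0.128, 0.557 and 0.439). The means come from different sets of libraries, and the test compares types within libraries. It ended with lymphatic endothelial-like cells at 5.44 ± 7.06 CPM (n = 10), below vascular endothelial-like cells, at 47.9 with a range from 23.9 to 70.8, by 3.58 ± 0.57 on the log2 scale (adjusted p = 2.14e-07). Among fibroblast-like clusters *Cd44* was highest in the lining, at 462 ± 106 CPM, from 290 through a median of 476 to 640, and higher than in the other clusters by 1.46 ± 0.09 (log2, SE; adjusted p = 2.57e-28). The *Inmt*/*Serpina3c* cluster, sublining-like, and the *Nppc*/*Egfl6* cluster were low, at 70.8 ± 22.7 and 45.7 ± 13.3 CPM, and were called lower (log2 difference −1.33 ± 0.13 and −2.24 ± 0.15). In the lining 82.8% of cells held a *Cd44* UMI, 54.4% after thinning, against 15.96% and 9.39% of vascular endothelial-like cells. *Ptprc*, which encodes CD45, had 0 or 1 UMI per library in all fibroblast-like cells together.

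*Vcan* was highest in proliferating-like, fibroblast-like and tenocyte-like cells, and low in the lining. Proliferating-like cells had 232 ± 71.8 CPM (n = 6), fibroblast-like cells 136 ± 77.4 and tenocyte-like cells 127 ± 112 (n = 12 for each). No difference between neighbours was called (edgeR quasi-likelihood test, adjusted p = 0.796 and 0.398). The proliferating-like sums all came from suffixes 4 to 9, and within libraries their log2 difference from fibroblast-like cells was 0.08 ± 0.20 (SE). Within the tenocyte-like cells the *C1qtnf3*/*Spon2* cluster had 227 ± 146 CPM (n = 7) and the *Ptx4*/*Chodl* cluster 23.0 ± 13.6 (n = 12), and the unnamed *Cytl1* cluster had 175 ± 65.8. Osteoblast-like cells followed at 27.6 ± 12.3 CPM, lower than tenocyte-like cells by 1.91 ± 0.21 on the log2 scale (adjusted p = 4.91e-13). Within the fibroblast-like cells the *Cxcl5*/*Sfrp1* and *Stmn4*/*Pi16* clusters were highest, at 250 ± 89.4 and 206 ± 68.4 CPM, and were called higher by 1.35 ± 0.16 and 1.42 ± 0.14. Lining-like cells had 44.7 ± 32.6 CPM and were lower by 1.34 ± 0.17 (adjusted p = 4.83e-11). The *Nppc*/*Egfl6* cluster had 15.7 ± 12.3 CPM and was lower by 3.05 ± 0.26. A *Vcan* UMI was found in 36.5% of fibroblast-like cells, 17.9% after thinning, and in 2.55% and 1.34% of vascular endothelial-like cells.

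*Acan* and *Hapln1* were genes of the chondrocyte-like cells, which were named from collagens and matrilin without either gene. *Acan* reached 2666 ± 390 CPM in the 8 libraries with at least 10 such cells, with values between 2231 and 3448 around a median of 2596. *Hapln1* reached 4137 ± 856 CPM, between 2880 and 5281 around a median of 4004. The 313 chondrocyte-like cells held 53.6% of all *Acan* UMIs and 90.1% of all *Hapln1* UMIs. Against fibroblast-like cells *Acan* was higher by 6.67 ± 0.35 and *Hapln1* by 9.30 ± 0.26 (log2, SE; adjusted p = 1.16e-31 and 3.07e-51). In this contrast 21.1% of the 10444 genes tested were called higher and 25.5% lower. *Prg4*, *Has1*, *Cd44* and *Vcan* were called lower in chondrocyte-like cells, by 6.64 ± 0.49, 3.46 ± 0.32, 1.47 ± 0.20 and 4.50 ± 0.37, while *Has2* was at 11.5 ± 5.89 CPM and was not called (log2 difference −0.43 ± 0.30, adjusted p = 0.240). Thus *Vcan* and its neighbour *Hapln1* differed in opposite directions in these cells. After thinning, 94.9% of chondrocyte-like cells held an *Acan* UMI and 95.8% a *Hapln1* UMI, against 1.15% and 0.766% of vascular endothelial-like cells.

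The overlap of *Acan* and *Hapln1* was partial. *Acan* extended to osteoblast-like cells at 113 ± 57.7 CPM and tenocyte-like cells at 101 ± 109, higher than in fibroblast-like cells by 1.92 ± 0.30 and 1.56 ± 0.30. Within the tenocyte-like cells the *C1qtnf3*/*Spon2* cluster had 195 ± 107 CPM (n = 7) and the *Ptx4*/*Chodl* cluster 8.57 ± 4.17 (n = 12). The name of the *C1qtnf3*/*Spon2* cells depends on the clustering: at a Leiden resolution of 0.5 the cluster led by *Spon2* and *C1qtnf3* was fibroblast-like, and the tenocyte-like cluster, led by *Clu*, *Angptl7* and *Wif1*, was higher in *Acan* by 0.91 ± 0.30 (adjusted p = 0.0138) and lower in *Vcan* (log2 difference −0.60 ± 0.16, adjusted p = 0.00231). Among fibroblast-like clusters the *Cxcl5*/*Sfrp1* cluster had 154 ± 29.5 CPM of *Acan* (n = 6), higher than the mean of the others by 3.52 ± 0.17 (adjusted p = 7.62e-34), with 11.4 ± 3.73 CPM of *Hapln1*. *Hapln1* passed the filter on low counts in the comparison of cell types and not in the comparison of fibroblast-like clusters, so it has no test there. The unnamed *Cytl1* cluster had 227 ± 147 CPM of *Acan* and 227 ± 233 of *Hapln1*, with *Hapln1* from 48.8 to 733 over the 12 libraries. That cluster was thus the one with high *Prg4*, *Acan* and *Hapln1* at once, and it entered none of the main tests. At a resolution of 0.5 no cluster had *Cytl1* among its leading genes. The tenocyte-like cluster of that resolution had *Clu*, *Cilp* and *Chad* among its own, as the *Cytl1* cluster had. How many cells of the *Cytl1* cluster it held was not counted, so its *Acan* difference may include them.

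Over all 11 cell types set against fibroblast-like cells, 8 of 77 member contrasts were called higher and 49 lower, where 13.1% and 17.7% of all gene contrasts were. The 8 higher calls were *Acan* and *Hapln1* in chondrocyte-like, osteoblast-like, tenocyte-like and proliferating-like cells. By cell type, 7 of 7 members were called in vascular endothelial-like cells (53.3% of all genes) and osteoblast-like cells (28.6%), 6 in chondrocyte-like (46.6%) and lymphatic endothelial-like cells (37.2%), and 5 in muscle-like (36.3%), immune-like (29.7%), Schwann-like (14.6%) and tenocyte-like cells (13.4%). Perivascular-like (38.6%) and proliferating-like cells (27.3%) had 4 called and erythroid-like cells (13.4%) 3. Calls of *Has2* in lymphatic endothelial-like, muscle-like, Schwann-like and immune-like cells rest on sums that were all at 0, and no fold is given for them. Over the 9 fibroblast-like clusters 20 of 54 contrasts were called higher and 20 lower, where 11.7% and 10.4% of all gene contrasts were. In the lining, *Nppc*/*Egfl6* and *Ifi205*/*C4b* clusters all 6 tested members were called, where 31.7%, 31.3% and 29.2% of all genes were. The *Cxcl5*/*Sfrp1* and *Stmn4*/*Pi16* clusters had 5 called (30.4% and 19.8%), the *Inmt*/*Serpina3c* cluster 4 (16.6%), the *Fbln7*/*Gpnmb* and *Mmp11*/*Col14a1* clusters 3 (16.1% and 12.1%) and the *Hmcn2*/*Ccl11* cluster 2 (11.8%).

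The other genes of hyaluronan metabolism were read from a list of 43, of which 20 were tested among fibroblast-like clusters. In the lining 8 of the 20 were called higher and 4 lower, with a median log2 difference of 0.11 against −0.02 over all 7089 genes (13.5% called higher, 18.1% lower). Among the 8 were enzymes that make the sugar precursors of hyaluronan. *Gnpnat1* and *Uap1*, of the hexosamine pathway, were higher by 2.23 ± 0.07 and 1.08 ± 0.07, *Gfpt2*, which starts that pathway, by 1.45 ± 0.10, *Ugp2*, which makes UDP-glucose, by 2.15 ± 0.07, and *Ugdh*, which oxidises UDP-glucose to UDP-glucuronic acid, by 1.13 ± 0.10. *Itih5*, of the heavy chain family that binds hyaluronan, was higher by 2.20 ± 0.11, the hyaluronidase gene *Tmem2* by 2.02 ± 0.12 and *Tnfaip6*, whose product transfers heavy chains onto hyaluronan, by 0.71 ± 0.14. *Ptx3*, a crosslinker of the hyaluronan matrix, was lower by 1.97 ± 0.26, *Itih2* by 1.87 ± 0.39, the receptor gene *Layn* by 0.81 ± 0.16 and the versican-cutting protease gene *Adamts1* by 0.67 ± 0.12.

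The *Ifi205*/*C4b* cluster, with *Has1* and *Has2* both high, had 11 of the 20 called higher and 0 lower, with a median of 0.72 against 0.01 over all genes (17.4% called higher, 11.7% lower). *Ptx3* and *Tnfaip6* were higher there by 3.12 ± 0.16 and 2.43 ± 0.13, *Gfpt2*, *Ugdh* and *Uap1* by 1.88 ± 0.10, 1.66 ± 0.10 and 1.55 ± 0.07, and the protease genes *Adamts4*, *Adamts1* and *Adamts9* by 1.36 ± 0.17, 1.34 ± 0.10 and 0.95 ± 0.31. *Itih2*, *Layn* and *Tmem2* made up the rest, at 1.11 ± 0.28, 0.93 ± 0.15 and 0.51 ± 0.18. In the *Nppc*/*Egfl6* cluster 4 were called higher and 12 lower, where 15.6% and 15.7% of all genes were, with a median of −1.07 against −0.01. The 4 list genes called lower in the lining, *Ptx3*, *Itih2*, *Layn* and *Adamts1*, were thus each called higher in the *Ifi205*/*C4b* cluster, as *Has2* was.

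Of the 29 tested genes of the list, 4 were called higher in chondrocyte-like than in fibroblast-like cells and 15 lower. Over all genes 21.1% were called higher and 25.5% lower. The median log2 difference was −0.92 against −0.09 over all genes. The 4 were *Hmmr*, a hyaluronan-binding protein also known from the mitotic spindle, by 4.46 ± 0.53, *Cemip*, which takes part in hyaluronan breakdown, by 2.55 ± 0.30, *Gfpt1* by 1.25 ± 0.17 and *Cmpk1* by 0.75 ± 0.15. Among the 15, *Ptx3* was lower by 3.61 ± 0.42 and *Tnfaip6* by 3.23 ± 0.30. The sums of chondrocyte-like cells held 5 UMIs of *Itih5*, 2 of *Tlr4*, 1 of *Adamts15* and 0 of *Lyve1*, so no fold is given for these 4.

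The comparison of labels asked whether these genes changed over the course of arthritis. In fibroblast-like cells no member was called at peak, resolving or resolved against rest, among 21 contrasts. Over all 11769 genes the percentage called was 0 in each contrast (edgeR), and 0 of the 21 member contrasts had an unadjusted p under 0.05. DESeq2 also called 0 of them. The SE of the 21 log2 differences ranged from 0.318 to 1.503, so changes of that size could not be told from none, and the absence of a call does not show that levels were alike. With the run of suffixes as a block, 0 members and 0 genes were called, and 4 of the 21 contrasts had an unadjusted p under 0.05, where 3.36% of all gene contrasts did. These were *Cd44* at peak and resolving (log2 difference −0.28 ± 0.11 and −0.37 ± 0.11) and *Has2* at peak and resolved (0.53 ± 0.23 and 0.54 ± 0.24), each with an adjusted p of at least 0.9998. In lining-like cells *Prg4* was 126847, 46837 and 42040 CPM in the rest libraries, 93889, 80936 and 63439 at peak, 132040, 40178 and 111368 at resolving and 72931, 69588 and 52881 at resolved, so the labels overlapped. The log2 differences from rest were 0.14 ± 0.48 at peak, 0.41 ± 0.48 at resolving and −0.17 ± 0.48 at resolved (SE; adjusted p of at least 0.9996 for each). Each difference was smaller than its error. In lining-like cells 0 of 12 member contrasts were called, where 0% of 6782 genes were, and DESeq2 called 0. The 1 contrast with an unadjusted p under 0.05 was *Cd44* at resolving (log2 difference −0.52 ± 0.23, edgeR quasi-likelihood test, unadjusted p = 0.0387, adjusted p = 0.9999). With the run as a block 2 of the 12 had one, *Cd44* at peak and resolving (−0.36 ± 0.16 and −0.54 ± 0.16, adjusted p = 0.9999 and 0.935), where 4.18% of all gene contrasts did.

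*Has1* in fibroblast-like cells was 910, 521 and 499 CPM at rest, 682, 485 and 1140 at peak, 564, 633 and 1421 at resolving and 401, 428 and 1302 at resolved. The highest library of the peak, resolving and resolved labels had a suffix from 10 to 12 in each case, a run that held no rest library. The fitted difference at peak was 0.30 ± 0.54, and −0.24 when the run of suffixes was a block. In chondrocyte-like cells, 0 of 15 member contrasts between labels were called and 0 had an unadjusted p under 0.05, where 0% of 3567 genes were called. With the run as a block 69 of 10701 gene contrasts were called, 0 of them of members. In that fit 1 of the 15 had an unadjusted p under 0.05, where 4.53% of all gene contrasts did. It was *Has1* at peak (log2 difference 1.09 ± 0.51, edgeR quasi-likelihood test, unadjusted p = 0.0416, adjusted p = 0.9996). The SE of the 15 member differences without the block ranged from 0.24 to 0.93. *Acan* at peak differed from rest by 0.08 ± 0.25 and *Hapln1* by −0.18 ± 0.29. No chondrocyte-like sum came from suffixes 10 to 12, and *Has2* and *Vcan* did not pass the filter there.

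**Figure D3:**
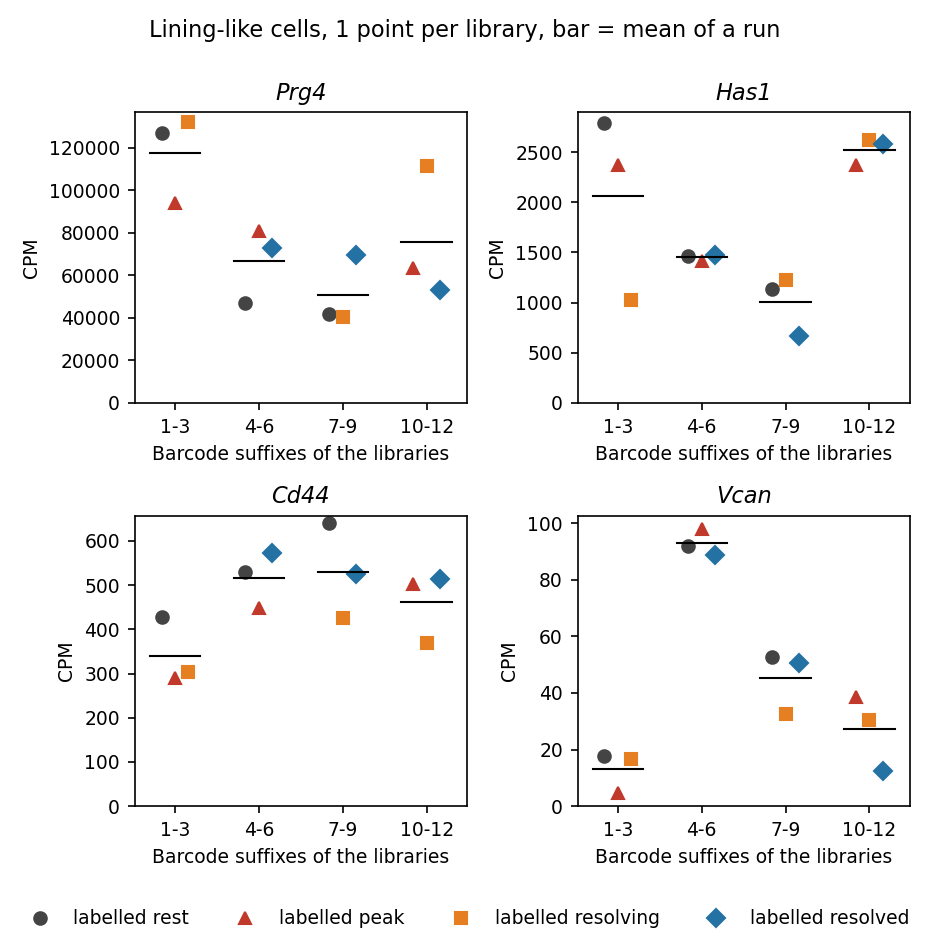
Levels in lining-like cells (CPM) with 1 point per library, by barcode suffix run (horizontal axis) and label (symbol), with a bar at the mean of each run. *Prg4* ranges from 40178 to 132040 CPM, and symbols of 1 label lie in different runs.

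Between the runs of suffixes, 7 of 7 members differed in fibroblast-like cells (edgeR quasi-likelihood F test over the 4 runs, adjusted p from 9.37e-08 for *Acan* to 0.00339 for *Hapln1*), where 54.8% of 11769 genes were called. The members did not share 1 order of runs. *Has1* was 1140 to 1421 CPM in suffixes 10 to 12 and 401 to 910 in the other 9 libraries, without overlap. *Vcan* was 191 to 281 CPM in suffixes 4 to 6 and 56.7 to 187 elsewhere. *Cd44* was 132 to 186 CPM in suffixes 1 to 3 and 216 to 330 elsewhere. *Has2* had its highest values in peak replicate 2 and resolved replicate 1, both in suffixes 4 to 6, at 44.4 and 40.7 CPM, with 11.4 to 20.6 in the other 10 libraries.

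*Acan* had the widest spread between runs. It was 78.3 to 141 CPM in suffixes 4 to 6, 44.5 to 61.7 in suffixes 7 to 9, and 2.45 to 9.89 in the other 6 libraries, a log2 range of 4.78 between run means. The *Cxcl5*/*Sfrp1* cluster made up 42.0% to 51.6% of the fibroblast-like cells in suffixes 4 to 6, 7.73% to 10.3% in 7 to 9, and 0% to 0.146% elsewhere. Without that cluster *Acan* was 8.72 to 27.0 CPM in suffixes 4 to 6 and 24.8 to 36.2 in 7 to 9, with the other runs still at 2.45 to 9.90. *Vcan* without it was 117 to 167 CPM in suffixes 4 to 6 and overlapped suffixes 7 to 9 (93.4 to 171), and *Has2* was 7.67 to 18.8 CPM, no longer above the other runs. *Has1* without it was at most 995 CPM in suffixes 4 to 6, against 401 to 521 with it, and stayed below suffixes 10 to 12. Summed over the 9 chondrocyte markers, fibroblast-like cells had 221 to 487 CPM in suffixes 4 to 6, 178 to 207 in 7 to 9, 118 to 271 in 1 to 3 and 91.6 to 111 in 10 to 12, with 8 or 9 of the markers detected in each library. Their part in the *Acan* difference was not tested.

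**Figure D4:**
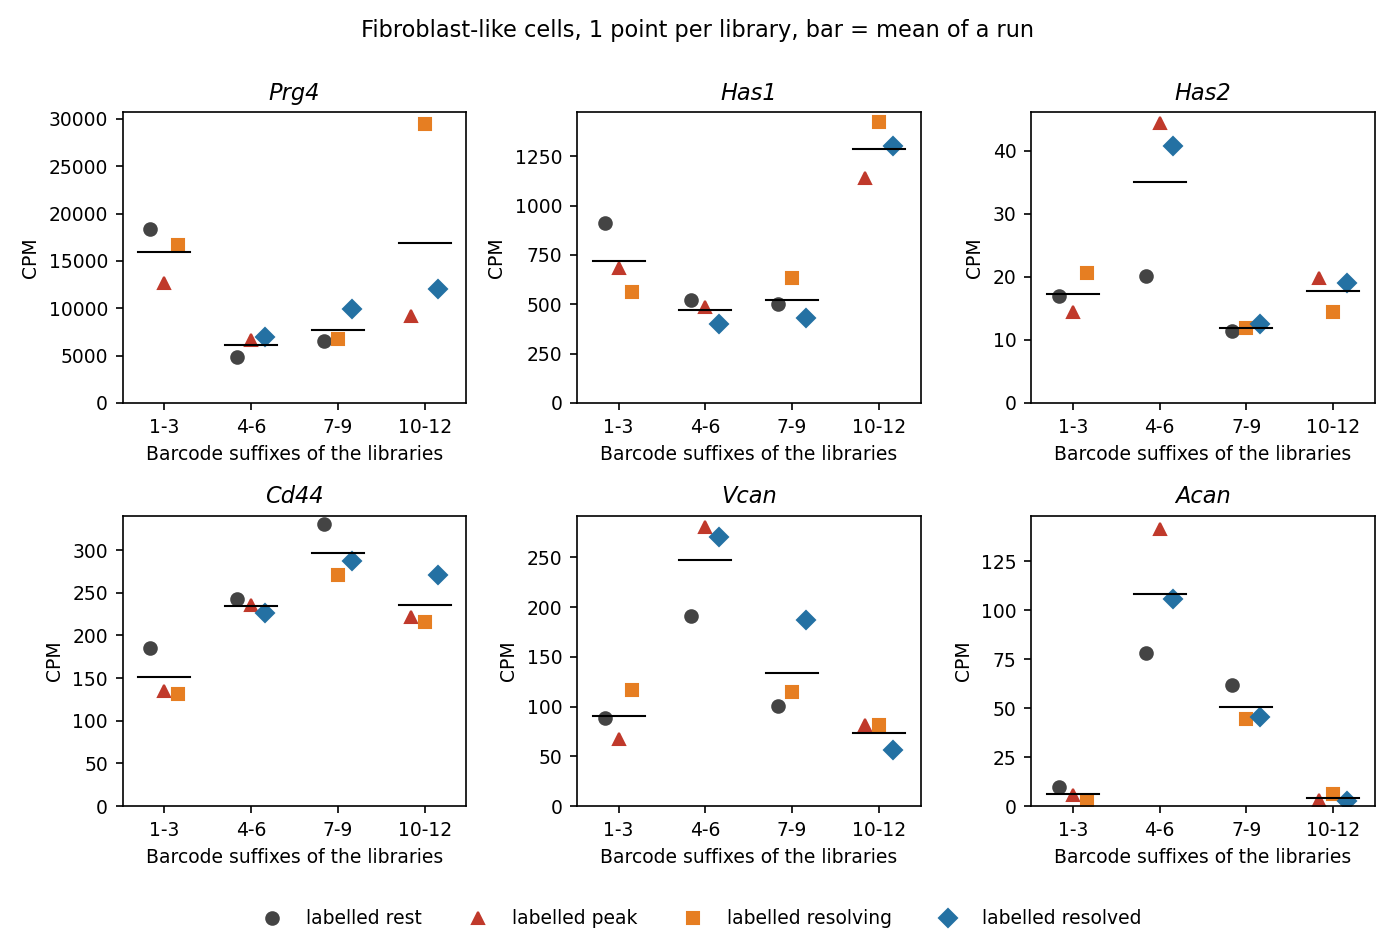
Levels of 6 genes in all fibroblast-like cells (CPM), with 1 point per library, by barcode suffix run (horizontal axis) and label (symbol), with a bar at the mean of each run. *Acan* is at least 44.5 CPM in suffixes 4 to 9 and at most 9.89 in the other libraries, and *Has1* is 1140 to 1421 CPM in suffixes 10 to 12.

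Of the 806553 *Prg4* UMIs in fibroblast-like cells 719746 were in the lining, and the order of runs was not that of the lining share. It was 4872 to 6996 CPM in suffixes 4 to 6, 6519 to 9872 in 7 to 9, 9141 to 29460 in 10 to 12 and 12654 to 18324 in 1 to 3. Lining-like cells made up 7.40% to 8.28%, 11.4% to 13.1%, 8.18% to 15.5% and 6.42% to 7.22% of the fibroblast-like cells in the same order, so the run with the smallest lining share was among those with the most *Prg4*. The log2 range between run means was 1.46 (adjusted p = 0.00294). With lining-like cells left out it was 0.73 and no longer called (adjusted p = 0.176), and suffixes 4 to 6, the lowest run before, then had 1434 to 2137 CPM against 689 to 2095 in the other 9 libraries. With each cell thinned to 2000 UMIs it was 0.68 (adjusted p = 0.149). Without the *Cxcl5*/*Sfrp1* cluster *Prg4* was 10000 to 18025 CPM in suffixes 4 to 6 and 7735 to 10894 in 7 to 9. It was then 9141 to 29460 CPM in 10 to 12 and 12681 to 18346 in 1 to 3. Suffixes 4 to 6 were thus no longer the lowest run. A sum over fibroblast-like cells depends on the number of lining-like cells, on their UMIs, on their *Prg4* level and on the UMIs of the other clusters. For example, 62 lining-like cells held 732822 UMIs in rest replicate 1 (suffix 1), and 91 held 597440 in rest replicate 2 (suffix 5). In rest replicate 3 (suffix 9) 76 held 396976, and in peak replicate 3 (suffix 10) 116 held 1141893. The part of each in the order of runs was not tested.

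Within lining-like cells, 3 of 4 tested members differed between runs, where 19.9% of 6782 genes did. *Prg4* was 93889 to 132040 CPM in suffixes 1 to 3, 46837 to 80936 in 4 to 6, 40178 to 69588 in 7 to 9 and 52881 to 111368 in 10 to 12 (adjusted p = 0.00991). Suffixes 10 to 12 overlapped each other run. *Has1* was 2372 to 2625 CPM in suffixes 10 to 12, above the 665 to 1474 of suffixes 4 to 9, while suffixes 1 to 3 spread from 1027 to 2789 (adjusted p = 0.00215). *Vcan* was 88.8 to 98.1 CPM in suffixes 4 to 6 and 4.81 to 52.9 in the other libraries (adjusted p = 0.000121). *Cd44* was not called (adjusted p = 0.0847). A list of 20 immediate early and stress genes, which tissue digestion is known to induce, summed to 22365 to 29170 CPM in fibroblast-like cells of suffixes 10 to 12, 20953 to 28684 in 1 to 3 and 15189 to 19157 in 4 to 9. The runs 10 to 12 and 1 to 3 thus overlapped in this sum. Its part in the *Has1* difference was not tested.

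In chondrocyte-like cells no tested member was called between runs of 2 or 3 libraries, where 1.09% of 3567 genes were called. A p that missed the threshold here does not show that levels were alike. *Acan* was 2576 to 2876 CPM in suffixes 1 to 3, 2305 to 3448 in 4 to 6 and 2231 to 2439 in 7 to 9. *Hapln1* was 4241 to 5281, 3542 to 4910 and 2880 to 3487 CPM in the same order (unadjusted p = 0.0400, adjusted p = 0.337), and it was the only one of the 5 with an unadjusted p under 0.05.

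Over the 11 cell types other than fibroblasts and the 9 fibroblast-like clusters, 20 points in all, the genes most like each member were found by Pearson correlation of mean log2(CPM + 1). The points share libraries, and the values are a description. *Prg4* was most like *Ptger3* (r = 0.92), *Rspo2* (0.90) and *Cpn1* (0.89), and *Has1* was most like *Dpt* (0.89), *Scara5* (0.88) and *Osr2* (0.86). *Has2* was most like *Il1r1* (0.86), *Figf* (0.83) and *Cd248* (0.83), and *Cd44* was most like *Emp3* (0.86), *Tnfaip6* (0.82) and *Slc39a6* (0.81). *Vcan* was most like *Mfap5* (0.91), *Col3a1* (0.90) and *Adgrd1* (0.90). *Acan* was most like *Efcab1* (0.90), *Wwp2* (0.90) and *Cemip* (0.89), and *Hapln1* was most like *Col9a1* (0.96), *Gramd2* (0.96) and *Mia* (0.94). *Acan* and *Hapln1* correlated with each other at 0.83, and the neighbours *Vcan* and *Hapln1* at −0.09.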

How the data were processed

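The authors sorted live CD45-negative cells from digested hind limb joints, prepared 10x 3′ version 2 libraries, and counted reads with Cell Ranger on mm10. The deposited values are whole-number UMI counts per gene and cell. Their median per cell is the same in all libraries, and whether the authors adjusted depth is not given in the sources used here. No further step of the authors was used, and their cell annotation was not used here.

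Cells with 500 to 5000 genes and over 500 UMIs were kept, below an upper limit of 20000 to 40000 UMIs set per library after the study's methods. Clustering used scanpy 1.11.5 (2000 variable genes, 30 components, 20 neighbours, Leiden resolution 1, seed 1), without the 7 genes, the pathway list and the immediate early genes. Clusters were named from fixed markers, and the detection limits of the naming rule were set after the clusters had been seen. So was a list of genes, among them *Cytl1*, *Cilp*, *Chad* and *Adipoq*, that kept clusters they led from the name fibroblast-like. It left the clusters of 862 and 27 cells unnamed. Scrublet called 56 cells as doublets, too few to have worked, so none was removed in the main values. The members and lists were chosen with earlier results of these data known.

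Counts were summed per library and cell type or cluster (at least 10 cells) and tested with edgeR 4.0.16 in R 4.3.3 (quasi-likelihood, TMM, low-count filter, Benjamini-Hochberg adjustment over all genes tested). A call needed an adjusted p under 0.05 and a log2 difference over 0.5, and for the F test over suffix runs an adjusted p under 0.05 alone. Library was a block where types or clusters of the same libraries were compared, as sums of 1 library are not independent. Per the labels, the 3 libraries of a label are biological replicates, each from the joints of 3 other animals. Shares carry Wilson 95% intervals. Genes named are the 7 members, pathway genes past the threshold, and the 3 genes most like each member among those reaching 20 CPM in a type or cluster. Replicate numbers did not pair the libraries: correlations of same-numbered libraries ranged from −0.55 to 0.69. Alternatives were RLE size factors, no filter, DESeq2 1.42.0, thinning to 2000 UMIs, leaving out the 6% of each library that Scrublet scored highest, sums of at least 30 cells, Leiden resolution 0.5, blocks, other fibroblast definitions and each library left out. Those in lining-like cells, the removal of the *Cxcl5*/*Sfrp1* cluster, its comparison with the *Ifi205*/*C4b* cluster over shared libraries and the vascular value without resolved replicate 2 were chosen after seeing the data. The tests were run on simulated data with known changes first.

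Of the gene identifiers, 27722 of 27998 were in GENCODE M21, used for positions. Whether the counting used strand is not given in the sources used here, so UMIs of *Has2*, *Prg4*, *Cd44*, *Vcan* and *Hapln1* may include some from the genes that overlap them.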

Additional observations from a re-analysis of the deposited data

Results flagged for a closer look

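In 3 of the 31 groups of libraries tested, 1 library lay far from the others, and chance alone flags about 1 in 20 groups. *Prg4* in lymphatic endothelial-like cells was 1128 CPM in peak replicate 2. *Has1* in the *Mmp11*/*Col14a1* cluster of fibroblast-like cells was 822 CPM in peak replicate 2. *Hapln1* in the same cluster was 19.3 CPM in rest replicate 1. That sum held only 10 cells and 51746 UMIs, so very few UMIs of the gene make up this value.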

How the results depend on the processing

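Of 752 alternative values, 715 kept their direction and their side of the threshold or moved little. The number of members called stayed at 0 between labels in fibroblast-like, lining-like and chondrocyte-like cells under each alternative tried, and with each library left out it ranged from 55 to 59 by cell type, 39 to 45 by fibroblast cluster, 7 to 7 by suffix run in fibroblast-like cells, 0 to 0 in chondrocyte-like cells and 3 to 4 in lining-like cells. Without the filter on low counts, which adds members to the test, 6 members differed between runs in lining-like cells, where 1761 of 15319 genes did. Of the added members, *Has2* had from 0 to 7 UMIs per library there. Between runs of fibroblast-like cells *Prg4* was no longer called with lining-like cells left out or with thinning, nor *Hapln1* with thinning. *Cd44* between runs of lining-like cells passed the threshold without rest replicate 1 (adjusted p = 0.0274), without resolving replicate 2 (0.0372) and without the filter (0.0145), by edgeR. *Has2* in chondrocyte-like cells did so without rest replicate 1 (log2 −0.90, adjusted p = 0.0323). The causes were not tested.

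The differences at peak that changed sign were not called, and some moved far with 1 library left out. In fibroblast-like cells without the filter *Prg4* was 0.011 and *Acan* 0.00092, and *Acan* was 0.054 with doublets removed, 0.14 with thinning and 0.11 with the suffix run as a block. With that block *Has1* was −0.24 in fibroblast-like and −0.23 in lining-like cells. With the replicate number as a block *Prg4* was 0.054 and 0 members were called. The numbers do not pair the libraries, so this fit is given here only. With each library left out, the differences in fibroblast-like cells ranged from −0.30 to 0.72 for *Prg4*, −0.11 to 0.58 for *Has1*, −0.76 to 0.67 for *Vcan*, −3.52 to 0.56 for *Acan* and −0.88 to 0.32 for *Hapln1*, with *Acan* and *Vcan* lowest without peak replicate 2. In lining-like cells they ranged from −0.15 to 0.86 for *Prg4*, −0.066 to 0.69 for *Has1* and −1.15 to 0.47 for *Vcan*.

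With each cell thinned to 2000 UMIs the share of cells with a UMI was 98.8% for *Prg4*, 74.7% for *Has1* and 54.4% for *Cd44* in lining-like cells, 6.25% for *Has2* in the *Ifi205*/*C4b* cluster, 17.9% for *Vcan* in fibroblast-like cells, and 94.9% for *Acan* and 95.8% for *Hapln1* in chondrocyte-like cells. In vascular endothelial-like cells it was 31.0% for *Prg4*, 2.94% for *Has1*, 9.39% for *Cd44*, 1.34% for *Vcan*, 1.15% for *Acan* and 0.766% for *Hapln1*. Depth limits *Hapln1* and *Has2*, with 469 and 1523 UMIs over all fibroblast-like cells.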
